A study of Sus scrofa with 22 samples.

Results

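The genes described here are the interferon-stimulated genes of the porcine endometrium, a given set of 47 symbols of genes known to be induced by interferons or to control that induction, matched to the deposited tables through NCBI gene IDs. Of these 47 genes, 43 were listed for at least 1 of 3 endometrial cell types, out of 12401 genes listed in all. The luminal epithelium (LE) and the stroma (S) each had 43 of them and the glandular epithelium (GE) 42, and 42 were listed for all cell types. IRF7 was listed for LE and S but not for GE. IRF8, ISG15, ISG20, and SAMD9 were not analysed here.

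Interferons bind receptors at the cell surface and activate Janus kinases, which phosphorylate STAT proteins. Together with IRF9 STAT2 takes part in a transcription factor that binds the interferon-stimulated response element (ISRE) in the promoters of genes against viruses, in presentation of antigen, and in control of the response itself. The pig conceptus secretes interferons as it elongates and attaches, and in the pregnant uterus many classical interferon-stimulated genes are known to be expressed mainly below the luminal epithelium.

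The 22 libraries were made from cells cut by laser capture microdissection (LCM) from frozen endometrium of 8 gilts on Day 12. All gilts were prepuberal German Landrace × Piétrain crossbreds whose ovulation was synchronised with PMSG followed by hCG. The 4 pregnant gilts (01, 03, 05, and 14) were inseminated with semen and the 4 control gilts (02, 04, 06, and 13), which were cyclic, with the supernatant of centrifuged semen. LE and GE had 1 library from each gilt, S had 3 control libraries (gilts 02, 04, and 13) and 3 pregnant libraries (gilts 01, 05, and 14), and the stromal cuts held fibroblasts together with other cells.

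Total counts per library were between 893912 (gilt 01, LE) and 4020796, so that 3 counts, taken as the floor, corresponded to 0.690 to 3.50 CPM (counts scaled to the library total after TMM normalisation). Marker genes of the cell types were mostly not apart between them. None of 26 markers of epithelium, fibroblasts, leukocytes, and endothelium passed FDR < 0.01 between control S and control LE in edgeR, 0 had an unadjusted p under 0.05, and the count by DESeq2 was 0 as well. The 8 fibroblast markers summed to 11439–16966 CPM in control LE and 4755–8510 CPM in control S, and the 8 epithelial markers to 2948–3633 and 2683–3435 CPM. Between pregnant S and LE 0 passed and 6 had an unadjusted p under 0.05 in edgeR. The median log2 differences were 0.83 for fibroblast, 1.04 for leukocyte, −0.33 for epithelial, and −0.37 for endothelial markers. Between pregnant GE and LE 2 epithelial markers passed, KRT19 higher and CLDN4 lower in GE. In the other contrasts 0 passed in edgeR, with 4 (control GE and LE), 8 (control S and GE), and 0 (pregnant S and GE) at an unadjusted p under 0.05. Cell type names below are those of the labels. In such bulk samples fewer cells of a type and less RNA per cell cannot be told apart.

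The promoters were searched for interferon-responsive motifs, which were not used to choose the members. In the window from 250 bases before to 50 bases after the start of each gene model (Sscrofa11.1, NCBI Annotation Release 106), the ISRE core GAAANNGAAA was searched on both strands. It occurred in 19 of the 43 members (44.2%) and in 396 of the 12398 listed genes with such a window (3.19%). The core of the gamma-activated site, TTCNNNGAA, which serves the response to interferon gamma, occurred in 3 members (6.98%) and in 6.58% of all listed genes. The 2 motifs can share a GAA where they meet, overlapping ISRE cores were counted separately, and a match is a description of letters only. The following windows of 40 bases lie wholly before the gene start and show the core in members of different function. They are written 5′ to 3′ on the strand that reads GAAANNGAAA, with the core in capitals. The position is that of the core's base farthest upstream, with the gene start as 0 and bases before it negative.
BST2, chr2:60305090-60305129, plus strand, position −201: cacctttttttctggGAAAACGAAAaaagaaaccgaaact
DTX3L, chr13:137961395-137961434, minus strand, position −38: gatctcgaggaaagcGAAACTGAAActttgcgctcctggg
HERC5, chr8:130591229-130591268, plus strand, position −95: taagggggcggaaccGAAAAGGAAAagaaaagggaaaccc
IFIT3, chr14:101214648-101214687, minus strand, position −67: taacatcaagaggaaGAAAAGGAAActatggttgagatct
IFIT3, chr14:101214679-101214718, minus strand, position −36: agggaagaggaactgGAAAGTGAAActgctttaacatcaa
IFITM3, chr2:129785-129824, minus strand, position −73: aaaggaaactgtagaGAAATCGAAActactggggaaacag
RSAD2, chr3:128897915-128897954, plus strand, position −130: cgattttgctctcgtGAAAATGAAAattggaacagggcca
SP110, chr15:131226559-131226598, plus strand, position −40: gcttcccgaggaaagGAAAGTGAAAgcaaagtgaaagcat
USP18, chr5:70183163-70183202, minus strand, position −143: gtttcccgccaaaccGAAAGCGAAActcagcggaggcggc
ZBP1, chr17:57986192-57986231, plus strand, position −99: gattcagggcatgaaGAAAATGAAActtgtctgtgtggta

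**Figure D1:**
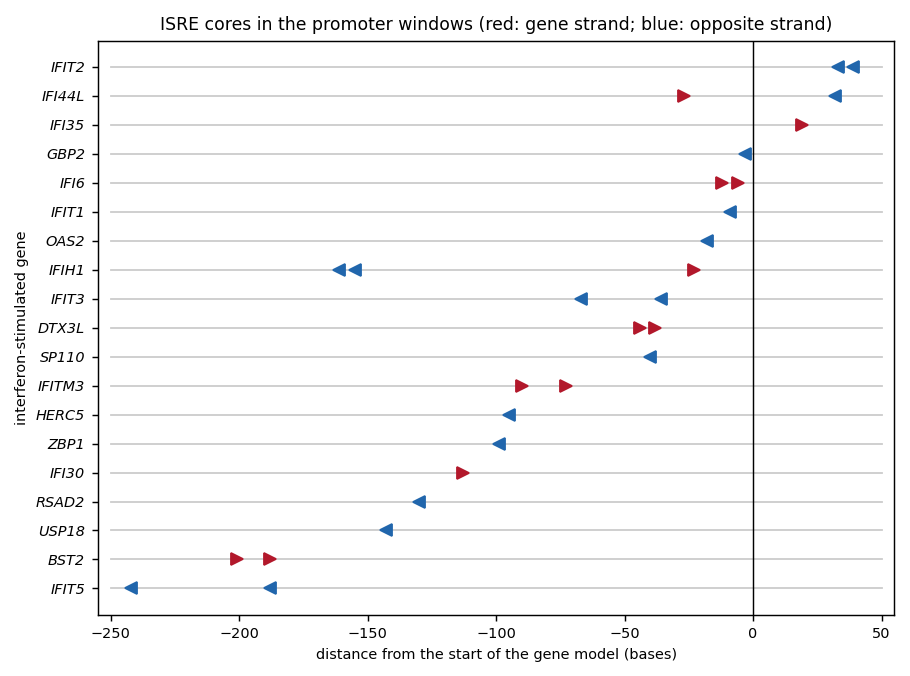
Positions of the 29 ISRE cores in the promoters of the 19 members that hold at least 1, with the distance from the gene start in bases on the horizontal axis and 1 line per gene. Cores lay on both strands and between the far end of the window and the first bases after the start.

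In LE the members were mostly lower in pregnant gilts. The pregnant-minus-control log2 fold change (log2 FC) was negative for 36 of 43 members and its median was −0.74, against 0.01 over all 11415 genes tested. At FDR < 0.01 in edgeR's quasi-likelihood test, 1 member was lower (IRF9) beside 3.71% of all genes, and 2 were higher (IFI30 and IRF2) beside 6.33% of all genes. At FDR < 0.05 the lower members were 6 (IRF9, STAT2, IFIT2, DDX58, XAF1, and IFIT1), beside 9.63% of all genes. At FDR < 0.01 DESeq2 called 2 higher members, beside 11.2% of all genes, and 4 lower ones, beside 7.87%. The CPM ranges of the control and pregnant libraries did not overlap for 9 members lower in pregnant gilts (IRF9, STAT2, IRF7, DDX58, OAS1, OAS2, IFIT2, PARP12, and XAF1), beside 12.7% of all genes, and for 2 higher ones, beside 14% of all genes. Without gilt 14 there were 27 such lower members, beside 18% of all genes, and without gilt 13 there were 14, beside 14.4%. There were 9 without gilt 01, 03, 04, or 05, beside 16%, 15.3%, 14.2%, and 14.3% of all genes, and 10 without gilt 02 or 06, beside 15.4% and 14.4%. Gilt 14 stood out by its high member levels in these same data, so counts without it, here and below, are descriptions only. Markers of cell types differed between the same groups. The 6 leukocyte markers listed for LE summed to 85.6–103 CPM in pregnant and 109.97–225 CPM in control libraries without overlap, and 5 of them had negative log2 FCs. At FDR < 0.01 in edgeR 0 of these 6 passed, with 5 at an unadjusted p under 0.05. Of the 8 epithelial markers, KRT7 (−1.65), KRT8 (−1.37), and KRT19 (−2.19) were lower and CDH1 (0.93) and CLDN4 (1.75) higher at FDR < 0.01 in edgeR. All 8 had an unadjusted edgeR p under 0.05. The part of these markers in the lower levels of the members was not tested. Counts of members at an unadjusted p under 0.05 are given below without the share of all genes, so they are descriptions only.

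In GE and S a member was called where its unadjusted edgeR p was under a threshold of 0.0021, and the FDR is given beside it. OAS1 was the 1 lower member, beside 0.12% of all 11676 genes, and 0 were higher, beside 0.574%. No member reached FDR < 0.05, 3 members had an unadjusted p under 0.05 (GBP1 and OAS1 lower, IFI30 higher), and DESeq2 called 1 lower member, beside 0.574% of all genes. The log2 FC was negative for 32 of 42 members with a median of −0.38, against −0.02 over all genes. OAS1 was also the 1 lower member whose group ranges did not overlap, beside 2.2% of all genes. Without gilt 14 this count was 19, beside 4.6% of all genes. All 8 fibroblast markers had negative log2 FCs in GE (median −0.51), and 6 of 8 epithelial markers had positive ones. Control gilt 02 had 46948 CPM of fibroblast and 810 CPM of epithelial markers, and control gilt 13 had 4302 and 2067 CPM. Of 7 leukocyte markers, 4 had an unadjusted edgeR p under 0.05, CD14 and CD68 higher, PTPRC and ITGAM lower. The part of these markers in the levels of the members was not tested.

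In S, 0 members passed the same threshold lower, beside 1.05% of all 11532 genes, and 0 higher, beside 0.425%. In edgeR, 4 members had an unadjusted p under 0.05 (OAS1, OAS2, and IFITM1 lower, IFI30 higher). A likelihood ratio test called 1 lower member, beside 2.36% of all genes, and DESeq2 called 2, beside 2.64%. The log2 FC was negative for 24 of 43 members with a median of −0.06, against 0.08 over all genes. The group ranges did not overlap for 3 lower members (OAS1, IFITM1, and IRF3), beside 9.38% of all genes, and without gilt 14 for 24, beside 16.5%. All 8 fibroblast markers had positive log2 FCs in S, with a median of 1.55, and the leukocyte markers summed to 108–288 CPM in pregnant and 89.3–101 CPM in control libraries without overlap. Gilt 01 had by far the highest sums, with 62200 CPM of fibroblast and 288 CPM of leukocyte markers. Gilts 05 and 14 had 8228 and 12099 CPM of fibroblast markers, beside 4755–8510 CPM in control S, so gilt 05 lay within the control range. Their leukocyte sums were 108 and 121 CPM. Of the 8 epithelial markers 5 had negative log2 FCs in S, and KRT7 was lower past the p threshold (−3.14, edgeR FDR 0.122). All 5 endothelial markers listed had positive log2 FCs, with a median of 1.45. The part of these markers in the levels of the members was not tested.

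**Figure D2:**
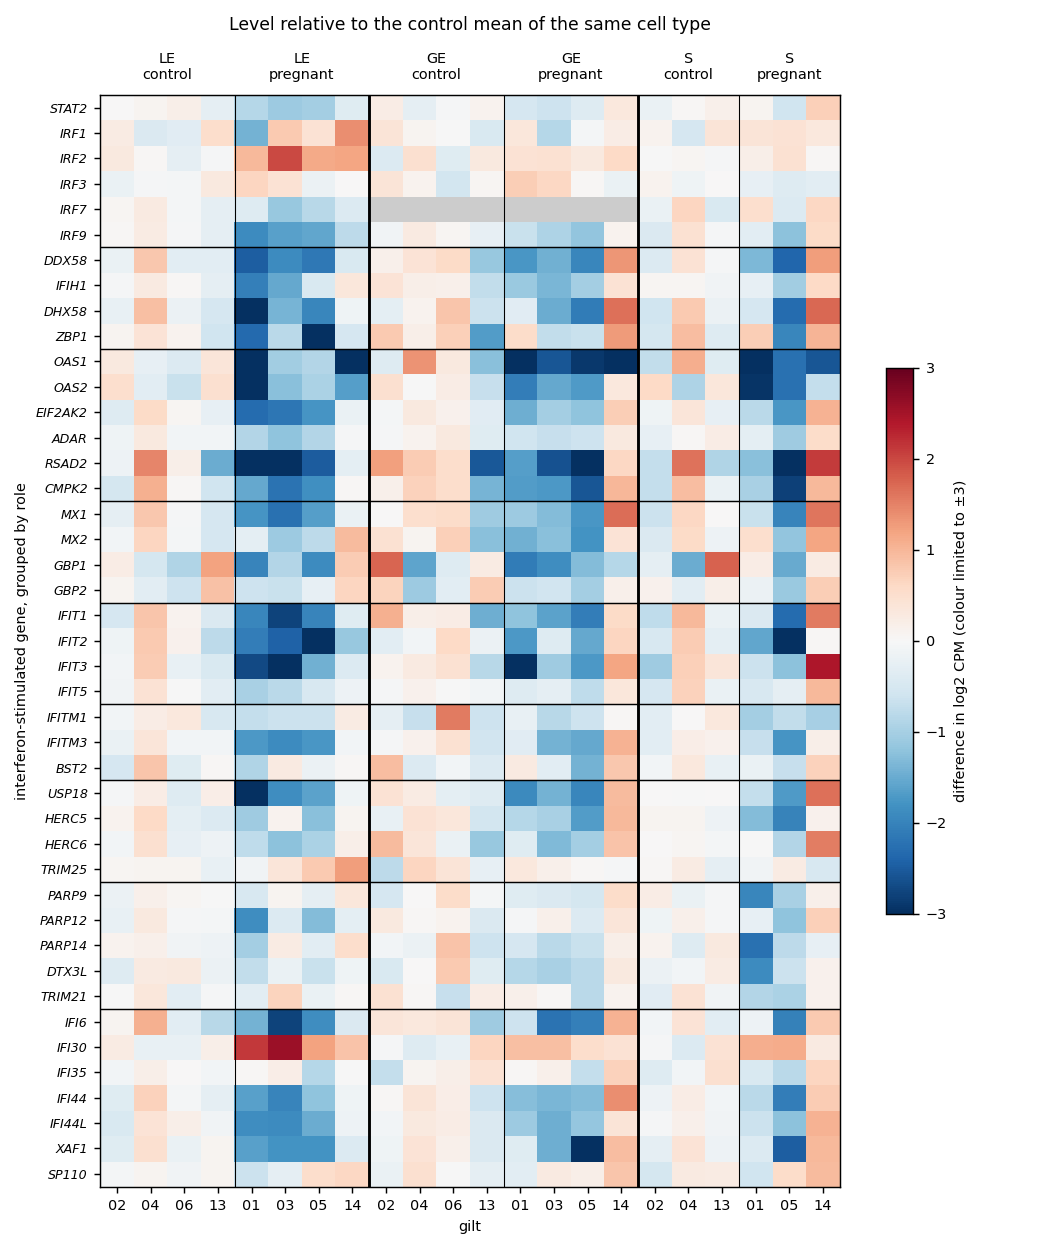
Level of each listed member in each of the 22 libraries as the difference in log2 CPM from the control mean of the same cell type, with genes grouped by role on the vertical axis and gilts on the horizontal axis. Red is above and blue below the control mean; the pregnant libraries of gilts 01, 03, and 05 are mostly blue and those of gilt 14 are not, with a mean log2 CPM over the members of 5.81 in LE, 5.93 in GE, and 6.17 in S.

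Among the 6 factors that control the response, 1 was higher and 1 lower in pregnant LE. IRF9 (gene ID 780415, chr7:75133800-75139641, minus strand) is the DNA-binding partner of STAT2. In LE its level was 87.1, 100.2, 82.5, and 70.4 CPM in control gilts 02, 04, 06, and 13 and 22.2, 27, 28.4, and 48.4 CPM in pregnant gilts 01, 03, 05, and 14, the order used for LE and GE throughout. All 4 pregnant libraries were below all 4 control libraries. The means were 85 ± 12.3 and 31.5 ± 11.6 CPM (SD, n = 4), with a log2 FC of −1.40 (SE 0.25, edgeR FDR 0.00312). Left-out gilts gave log2 FCs of −1.69 to −1.29 and FDRs of 0.000292 to 0.0136, above 0.01 without gilt 02, 04, 05, or 06. In GE the level of IRF9 was 61.4, 80.1, 69.1, and 55.6 CPM in control and 41.4, 34.1, 28.7, and 70.7 CPM in pregnant gilts (log2 FC −0.61, edgeR FDR 0.662). In S it was 46.1, 85.6, and 60.8 CPM in control gilts 02, 04, and 13 and 49.4, 26.1, and 93.1 CPM in pregnant gilts 01, 05, and 14, the order used for S throughout (log2 FC −0.19, edgeR FDR 0.929). In GE and S the pregnant library of gilt 14 lay within or above the control range.

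IRF2 (gene ID 100621620, chr15:45546779-45693241, minus strand) competes with IRF1 for the same sites and is known as a brake on interferon-induced transcription. In LE its level was 75.3, 62.8, 50.8, and 60.3 CPM in control and 123, 246, 137, and 141 CPM in pregnant gilts. The groups did not overlap, and gilt 03 was well above the other pregnant gilts. The means were 62.3 ± 10.1 and 162 ± 56.8 CPM (SD, n = 4), with a log2 FC of 1.38 (SE 0.24, edgeR FDR 0.00309). Left-out gilts gave log2 FCs of 1.10 to 1.48 and FDRs of 0.00269 to 0.0129, above 0.01 without gilt 04, 06, or 13. The levels of IRF2 in GE were 54.4, 103, 56.1, and 89.4 CPM in control and 98.4, 99.9, 89.9, and 111 CPM in pregnant gilts (log2 FC 0.40, edgeR FDR 0.719). In S they were 79.1, 82.4, and 77.6 CPM and 90.6, 109.8, and 81.5 CPM (log2 FC 0.24, edgeR FDR 0.737), and in both cell types the groups overlapped. Of the other factors, STAT2, which joins IRF9 in the ISRE-binding complex, had a log2 FC of −0.81 in LE (edgeR FDR 0.0174), with 109 to 151 CPM in control and 61.8 to 104 CPM in pregnant libraries. IRF7, which amplifies interferon production, had −0.74 (edgeR FDR 0.102). IRF1, an activator induced by interferon gamma, and IRF3, which starts interferon transcription, had 0.60 and 0.21, with edgeR FDRs of 0.372 and 0.604.

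The 4 sensors of foreign nucleic acid, DDX58, IFIH1, and DHX58, which bind viral RNA, and ZBP1, which binds unusual helices, all had negative log2 FCs in LE, with a median of −1.40; 0 passed FDR < 0.01 and 3 had an unadjusted p under 0.05 in edgeR. In GE and S the medians were −0.14 and 0.09. DDX58, which encodes RIG-I, had 97.1 to 213 CPM in control and 21 to 87.8 CPM in pregnant LE without overlap (log2 FC −1.57, SE 0.45, edgeR FDR 0.0299). IFIH1 (gene ID 100101927, chr15:68930998-68985145, minus strand), which encodes MDA5, had 68.6, 85.2, 72.4, and 57.8 CPM in control and 16.3, 23.9, 51.1, and 89 CPM in pregnant LE (log2 FC −0.60, edgeR FDR 0.336). Gilt 14 was above all 4 control libraries and the other pregnant gilts were below all of them. In GE the levels of IFIH1 were 76.2, 64.4, 62.8, and 33.5 CPM in control and 25.7, 21.4, 27.8, and 77.4 CPM in pregnant gilts (log2 FC −0.63, edgeR FDR 0.753). In S they were 61, 61.1, and 54.2 CPM and 49.4, 28.1, and 89.5 CPM (log2 FC −0.07, edgeR FDR 0.970).

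The 6 effectors that act on viral RNA and nucleotides all had negative log2 FCs in LE and in GE, with medians of −1.54 and −0.85, and 5 of 6 were negative in S, with a median of −0.24. All 6 had an unadjusted p under 0.05 in LE, as did all 8 epithelial markers there, and 1 of the 6 passed the threshold in GE. OAS1 (gene ID 397570, chr14:38851083-38867427, minus strand) makes the oligoadenylates that activate RNase L. In GE its level was 53.1, 177, 84.7, and 28.9 CPM in control and 0, 11.2, 8.70, and 5.30 CPM in pregnant gilts. The value of 0 in gilt 01 allows up to 1.51 CPM at 3 counts, and every pregnant library was below every control library. The means were 86 ± 65.1 and 6.29 ± 4.84 CPM (SD, n = 4), with a log2 FC of −3.71 (SE 0.84, past the p threshold, edgeR FDR 0.284). Left-out gilts gave log2 FCs of −4.11 to −3.09 and FDRs of 0.196 to 0.695, and p was above the threshold without gilt 03, 04, 05, 06, or 14. In LE the levels of OAS1 were 50.2, 33.9, 30.3, and 52.7 CPM in control and 0, 19.2, 21.8, and 3.12 CPM in pregnant gilts (log2 FC −1.80, SE 0.63, edgeR FDR 0.0657). In S they were 40.9, 148, and 53.8 CPM in control and 0, 14.1, and 11 CPM in pregnant gilts (log2 FC −3.16, SE 0.91, edgeR FDR 0.238). The groups did not overlap in any of the 3 cell types, and gilt 01 had no count of OAS1 in any of them, which allows 3.50 CPM in LE and 2.43 CPM in S. OAS1 shares 5.02% of its 50-base windows with RPH3A, which overlaps it.

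OAS2 (gene ID 595128, chr14:38827667-38847697, minus strand), a larger enzyme of the same kind, had the highest level per kilobase of the effectors. In LE it had 739, 418, 326, and 724 CPM in control and 16.3, 219, 271, and 164 CPM in pregnant gilts (log2 FC −1.70, SE 0.60, edgeR FDR 0.0654). In GE it had 344, 246, 291, and 153 CPM and 58, 85.1, 75.9, and 309 CPM (log2 FC −0.97, edgeR FDR 0.702). In S it had 823, 287, and 695 CPM and 70.4, 116, and 331 CPM (log2 FC −1.80, SE 0.65, edgeR FDR 0.328). The groups were apart in LE, and in GE and S gilt 14 reached into the control range. EIF2AK2 and RSAD2 were chosen for display after their values were seen. EIF2AK2 encodes PKR, which halts translation on double-stranded RNA, and had 358, 696, 484, and 397 CPM in control and 93.4, 103, 137, and 405 CPM in pregnant LE (log2 FC −1.38, edgeR FDR 0.0518). In GE it had 400.3, 512, 459, and 331 CPM and 151, 206, 183, and 697 CPM (log2 FC −0.46, edgeR FDR 0.845). In gilts 01, 03, and 05 EIF2AK2 was below all controls in both epithelia, and in gilt 14 it was within the control range in LE and above it in GE. RSAD2 encodes viperin, which makes a chain-terminating nucleotide. It had 35.1, 109.8, 44.2, and 13.6 CPM in control and 2.33, 1.04, 6.35, and 31.9 CPM in pregnant LE (log2 FC −2.12, SE 0.84, edgeR FDR 0.0977). For RSAD2 the LE values of gilts 01 and 03 lay under their floors of 3.50 and 1.56 CPM and cannot be told from 0. In S it had 11, 58.4, and 9.52 CPM in control and 7.28, 0, and 82.1 CPM in pregnant gilts, with 0 counts in gilt 05, which allows up to 1.0 CPM, and the highest value in gilt 14 (log2 FC 0.20, SE 1.45, edgeR FDR 0.977). CMPK2, the neighbour of RSAD2 that supplies it with nucleotide, and ADAR, which edits double-stranded RNA, had log2 FCs of −1.25 and −0.68 in LE (edgeR FDRs 0.132 and 0.0773).

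**Figure D3:**
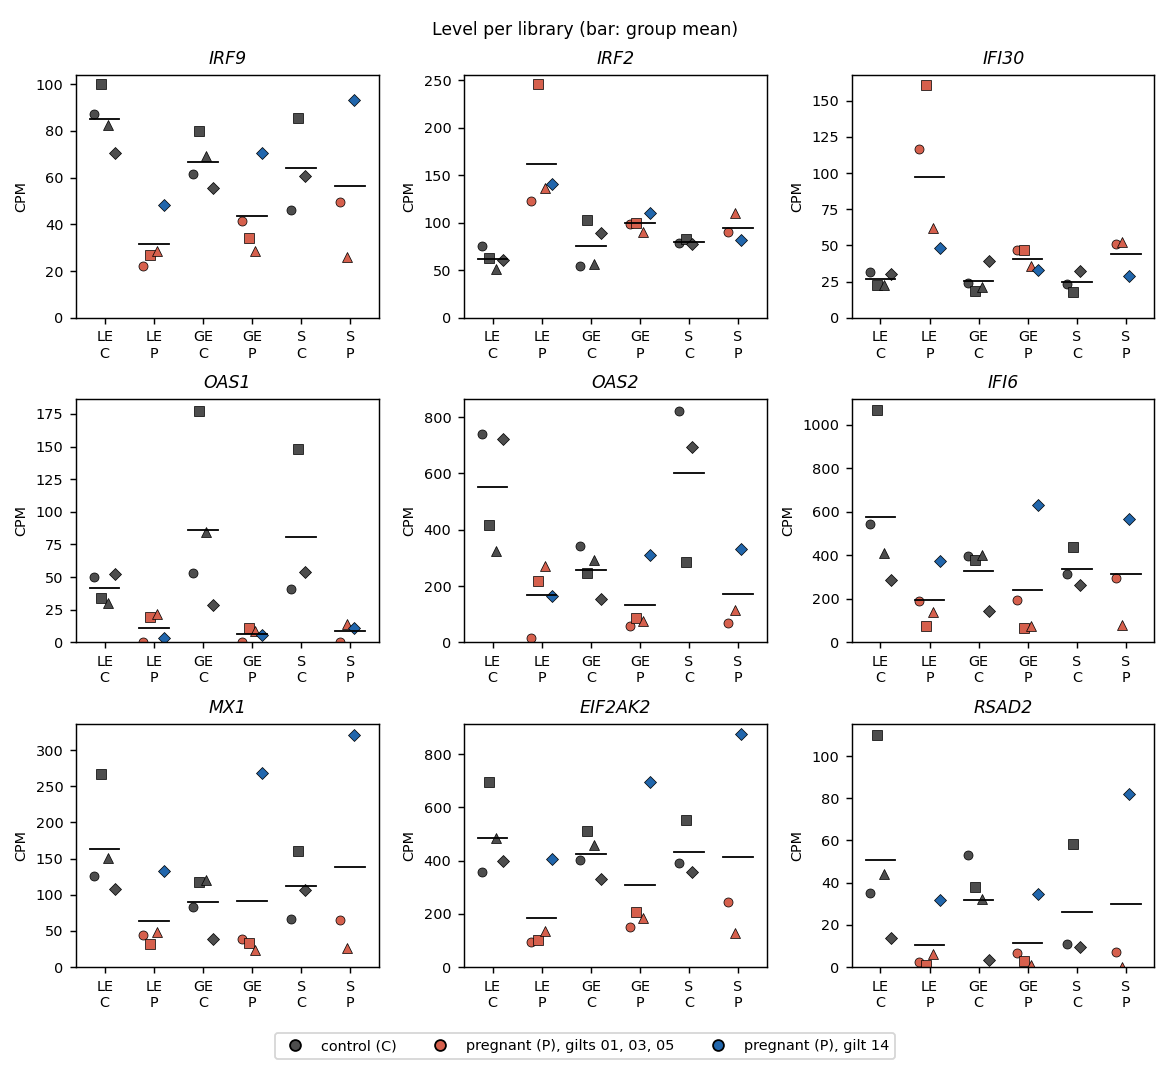
CPM of IRF9, IRF2, IFI30, OAS1, OAS2, IFI6, MX1, EIF2AK2, and RSAD2 in each library of LE, GE, and S. Control (C) and pregnant (P) groups have their means as bars, and gilt 14 is in blue. The other members described one by one are not shown. For OAS1 the pregnant points lie under all control points in each cell type, with 0 to 11.2 CPM against 28.9 to 177 CPM in GE. For most of the other genes shown the point of gilt 14 stands above the remaining pregnant points.

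The 4 dynamin-like GTPases had a median log2 FC of −0.46 in LE, −0.84 in GE, and 0.16 in S, and 0 passed the threshold in any cell type, with 1 at an unadjusted p under 0.05 in LE, 1 in GE, and 0 in S. MX1 (gene ID 397128, chr13:204843049-204868927, plus strand) traps viral nucleocapsids. Its level in LE was 126, 267, 150.3, and 108 CPM in control and 44.4, 31.7, 48.1, and 133 CPM in pregnant gilts (log2 FC −1.32, SE 0.45, edgeR FDR 0.0582). In GE it was 83.6, 118, 121, and 39.2 CPM and 38.4, 32.9, 24.1, and 268 CPM (log2 FC 0.01, SE 0.77, edgeR FDR 0.999). In S it was 66.9, 161, and 106 CPM and 65.5, 26.1, and 321 CPM (log2 FC 0.31, SE 0.84, edgeR FDR 0.932). Gilt 14 had the highest MX1 level among all libraries of GE and of S. GBP1 and GBP2, which attack the vacuoles of intracellular pathogens, had log2 FCs of −1.99 (SE 0.67, edgeR FDR 0.468) and −0.68 in GE. They share 10.0% and 32.6% of their 50-base windows with other genes, so their counts are less certain. MX2 had a log2 FC of −0.11 in LE.

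The 4 IFIT genes, whose proteins bind foreign RNA ends, were all negative in LE, with a median of −1.57 and an unadjusted p under 0.05 for each, and 0 passed FDR < 0.01 in edgeR. The medians were −0.45 in GE and 0.17 in S. IFIT2 had the lowest log2 FC of all members in LE, −2.31 (SE 0.62, edgeR FDR 0.0233), with 20.7 to 63.9 CPM in control and 0.907 to 16.2 CPM in pregnant libraries. IFIT1 and IFIT3 had −1.57 and −1.57. IFIT5 (gene ID 100151816, chr14:101254818-101266105, plus strand) had the highest level of this family per kilobase. Its levels in LE were 64.6, 93, 68.2, and 55.2 CPM in control and 35, 38.9, 49.3, and 62.5 CPM in pregnant gilts (log2 FC −0.58, edgeR FDR 0.102). In GE they were 57.7, 64.4, 57.8, and 55.4 CPM and 44.9, 48.9, 34.2, and 74.9 CPM (log2 FC −0.21, edgeR FDR 0.857). In S they were 39, 89.7, and 48 CPM and 39.6, 45.5, and 109 CPM (log2 FC 0.14, edgeR FDR 0.949).

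The 3 membrane proteins that act against entry and release of viruses were negative in LE and GE. IFITM3 (gene ID 100518544, chr2:128658-129736, minus strand) makes membranes resistant to fusion. It had 189.7, 279, 204, and 207 CPM in control and 65.4, 58.2, 64.7, and 206 CPM in pregnant LE (log2 FC −1.14, SE 0.39, edgeR FDR 0.0593). In GE it had 93.1, 104, 131, and 63.7 CPM and 74.7, 35, 32.5, and 197 CPM (log2 FC −0.21, edgeR FDR 0.935). In S it had 129, 186, and 176 CPM and 100.3, 46.5, and 184 CPM (log2 FC −0.57, edgeR FDR 0.700). In LE the 3 pregnant gilts other than gilt 14 were below all controls. IFITM1, its relative at the cell surface, had log2 FCs of −0.41, −0.72, and −0.94 in LE, GE, and S, with an edgeR FDR of 0.213 in S, where the groups did not overlap. BST2, which tethers budding virions, had −0.21, −0.07, and 0.04. IFITM3 and IFITM1 share 36.2% and 17.9% of their 50-base windows with near copies.

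Of the 4 genes of ISG15 conjugation and removal, 3 were negative in LE and 0 passed the threshold in any cell type, with medians of −0.53, −0.36, and 0.20 in LE, GE, and S. TRIM25 (gene ID 100622285, chr12:33184039-33212440, minus strand), a ligase that also activates RIG-I, had 147, 150.2, 150.0, and 120.4 CPM in control and 132, 183, 244, and 335 CPM in pregnant LE (log2 FC 0.67, edgeR FDR 0.0914). The values in GE were 75.8, 206, 170.2, and 109.7 CPM and 162, 146, 134, and 127 CPM (log2 FC 0.02, edgeR FDR 0.992). The values in S were 143, 167, and 116 CPM and 131, 168, and 100.2 CPM (log2 FC −0.09, edgeR FDR 0.942). The groups overlapped in each cell type. USP18, which removes ISG15 and blocks the receptor, had a log2 FC of −1.25 in LE (edgeR FDR 0.0965). HERC5 and HERC6, the ISG15 ligase and its relative, had −0.45 and −0.61.

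The 5 genes of ADP-ribosylation and ubiquitin ligation had medians near 0 in LE, −0.04, and of −0.17 in GE and −0.59 in S, with 0 past the threshold. PARP14 (gene ID 100153948, chr13:137809499-137865383, minus strand), an ADP-ribosyltransferase, had 273, 281, 237, and 228 CPM in control and 125, 300.1, 204, and 364 CPM in pregnant LE (log2 FC −0.03, edgeR FDR 0.948). The GE libraries had 96, 90.6, 186, and 66.4 CPM and 72.2, 57.7, 63.5, and 116 CPM (log2 FC −0.51, edgeR FDR 0.752). The S libraries had 242, 173, and 275 CPM and 46.9, 132, and 189.6 CPM (log2 FC −0.90, edgeR FDR 0.511). The groups overlapped in all of them. PARP12 was below its control range in all pregnant LE libraries (log2 FC −0.82, edgeR FDR 0.0839). PARP9 and its partner DTX3L, which overlap on opposite strands, had −0.04 and −0.43, and TRIM21, an antibody receptor inside cells, had 0.10.

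The 7 remaining interferon-induced genes had medians of −1.10, −0.10, and −0.07 in LE, GE, and S. IFI30 (gene ID 100174943, chr2:59629762-59633714, minus strand) encodes a lysosomal reductase that prepares antigens for MHC class II and is known to be induced by interferon gamma. In LE its level was 31.4, 22.7, 22.6, and 30.1 CPM in control and 117, 161, 62.3, and 48.4 CPM in pregnant gilts. All pregnant libraries were above all control libraries, and gilt 14 was the lowest of them. The means were 26.7 ± 4.70 and 97.1 ± 51.8 CPM (SD, n = 4), with a log2 FC of 1.85 (SE 0.36, edgeR FDR 0.00542). Left-out gilts gave log2 FCs of 1.46 to 2.08 and FDRs of 0.000938 to 0.0230, above 0.01 without gilt 01, 02, 03, 04, 06, or 13. In GE IFI30 had 23.9, 18.6, 21.1, and 38.9 CPM in control and 46.9, 46.8, 35.9, and 33.2 CPM in pregnant gilts (log2 FC 0.66, edgeR FDR 0.590). In S it had 23.2, 17.8, and 32.2 CPM and 51, 52.2, and 28.8 CPM (log2 FC 0.85, edgeR FDR 0.396). IFI30 shares 18.7% of its 50-base windows with a gene on the opposite strand, and the strand used in counting is not given in the sources used here.

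IFI6 (gene ID 110261124, chr6:84852782-84858072, minus strand), a small mitochondrial protein, had the highest level per kilobase of all members. In LE it had 542, 1068, 409.9, and 285 CPM in control and 190.3, 73.2, 139.7, and 376 CPM in pregnant gilts (log2 FC −1.56, SE 0.51, edgeR FDR 0.0521). In GE it had 395, 379, 400.4, and 144 CPM and 197, 65.5, 73.6, and 633 CPM (log2 FC −0.44, SE 0.71, edgeR FDR 0.899). In S it had 315, 437, and 265 CPM and 297, 80.7, and 568 CPM (log2 FC −0.10, SE 0.62, edgeR FDR 0.972). Gilt 14 was the highest pregnant library in each cell type. IFI44, IFI44L, and XAF1 had log2 FCs of −1.10, −1.17, and −1.33 in LE, with edgeR FDRs of 0.0743, 0.0515, and 0.0346. XAF1 lies wholly within another gene model on the same strand, so reads of the pair cannot be told apart. IFI35 and SP110, a nuclear body protein, had −0.14 and 0.20 in LE.

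**Figure D4:**
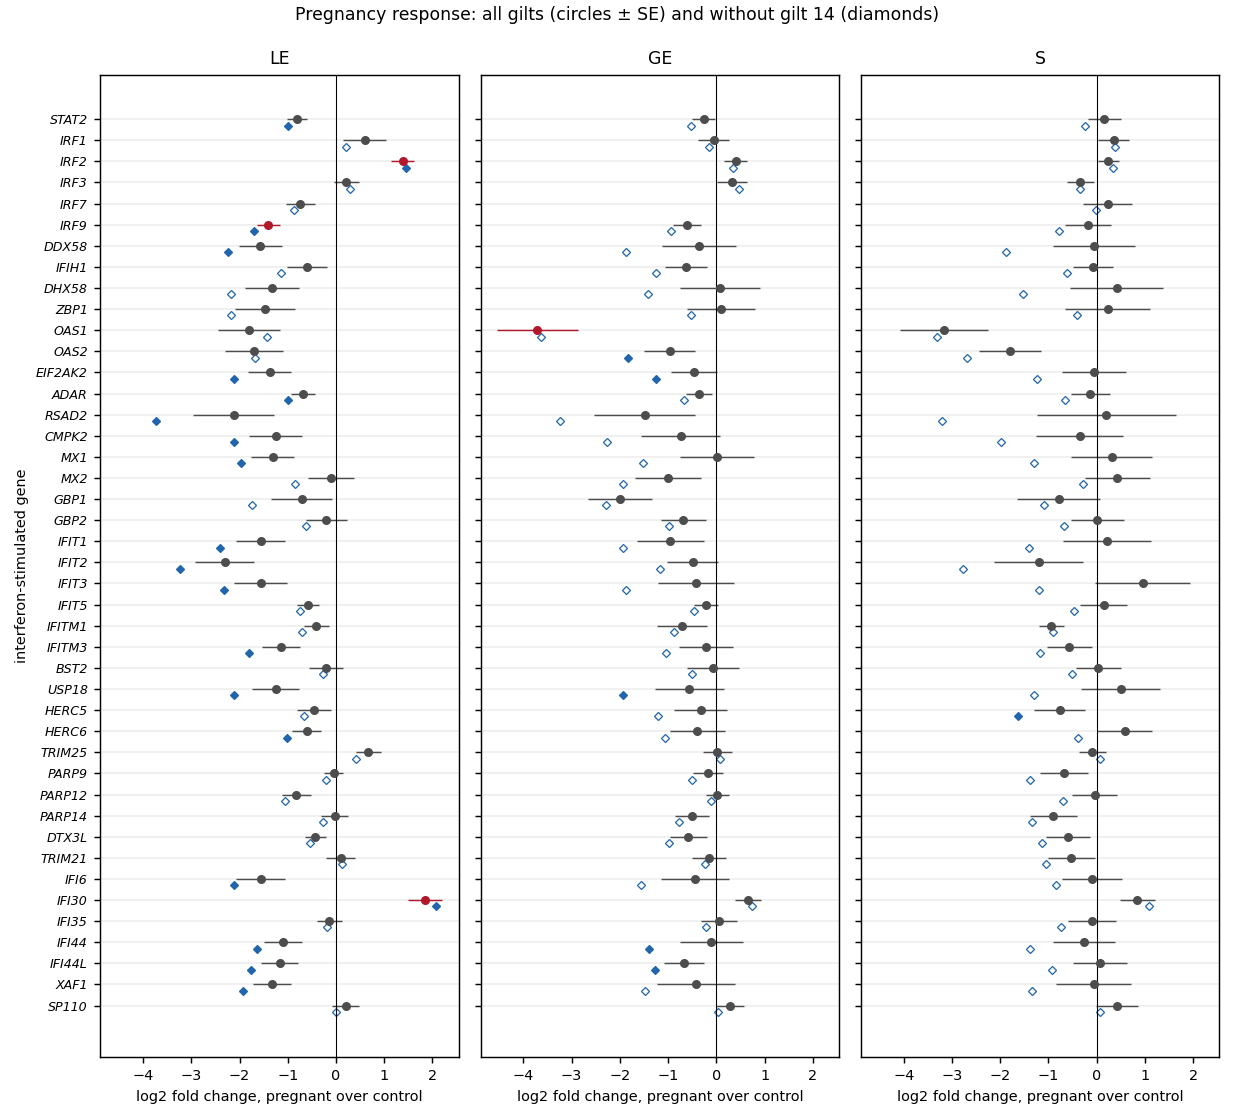
Pregnant-over-control log2 FC of each member in LE, GE, and S, for all gilts (circles, bars are SE) and without gilt 14 (diamonds). In LE most circles lie left of 0, with a median of −0.74, and leaving out gilt 14 moves the medians to −1.05 in LE, −1.06 in GE, and −0.92 in S. Gilt 14 had high member levels in these same data, so lower medians follow from leaving it out.

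The spread of the members between libraries of the same group had a higher median in pregnant than in control gilts in each cell type. The median SD of log2 CPM over the members was 0.37 in control LE and 0.79 in pregnant LE, beside 0.24 and 0.44 over all genes. In GE it was 0.50 in control and 0.89 in pregnant gilts, beside 0.42 and 0.39 over all genes. In S it was 0.37 and 1.04, beside 0.31 and 0.50. The SD was larger in pregnant gilts for 40 of 43 members in LE (80.2% of all genes), 33 of 42 in GE (42.8%), and 38 of 43 in S (71.3%). In LE and S most genes of any kind had the larger SD in pregnant gilts. These are descriptions, and no test was run on them.

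The pregnant spread lay mostly between gilt 14 and the others. The mean log2 CPM over the members was 4.42, 4.86, 4.82, and 5.81 in pregnant LE libraries of gilts 01, 03, 05, and 14, and 5.79, 6.23, 5.75, and 5.72 in control libraries. In GE it was 4.58, 4.51, 4.20, and 5.93 in pregnant and 5.58, 5.55, 5.66, and 4.90 in control libraries. In S it was 4.88, 4.25, and 6.17 in pregnant and 5.33, 5.81, and 5.58 in control libraries. In each cell type gilt 14 was within or above the control range, and the other pregnant gilts were below every control library. Gilt 14 had the highest pregnant level for 33 of 43 members in LE, 36 of 42 in GE, and 36 of 43 in S, beside 26.3%, 28.0%, and 32.8% of all genes. On the scale of log2 CPM with a prior count of 2, its median level over the members was 2.22-fold (LE), 2.70-fold (GE), and 2.72-fold (S) that of the other pregnant libraries, beside 1.02, 1.01, and 0.995 over all genes. In GE 22 members and in S 27 members were above every control library in gilt 14, beside 22.3% and 33.3% of all genes. In LE 9 members were above every control library in gilt 14, beside 30.8% of all genes, and 9 were below every one, beside 30.3%. In gilts 01, 03, and 05, 36, 30, and 34 of 43 members were below every control library in LE, beside 39.5%, 36%, and 34.7% of all genes.

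Other libraries stood apart as well. In S, gilt 05 had a median of 0.378-fold the other pregnant libraries, gilt 14 among them, and was under 0.5-fold for 25 of 43 members, beside 12.6% of all genes. This was about as far below the others as gilt 14 was above them. In GE gilt 05 had a median of 0.626-fold and was under 0.5-fold for 16 of 42 members, beside 4.84% of all genes. In control gilts, gilt 04 had the highest level for 31 of 43 members in LE and 29 of 43 in S, beside 22.3% and 33.5% of all genes. Control gilt 13 had the lowest level for 29 of 42 members in GE, beside 26.5% of all genes. The leukocyte markers of gilt 14 summed to 85.6 CPM (LE), 109.9 CPM (GE), and 121 CPM (S). The other pregnant libraries had 87.1–103, 165–193, and 108–288 CPM. In LE and GE gilt 14 was thus the lowest of all 8 libraries. Of the 14 leukocyte markers, LE and S listed 6 and GE 7, and CD3E, CD2, CD8A, and NKG7 were not among them. The endothelial markers of gilt 14 (5 of 6 listed) summed to 531, 124, and 252 CPM, the lowest pregnant value in each cell type. Control libraries had summed leukocyte markers of 127–183 CPM in GE, and endothelial markers of 540.4–826 (LE), 47.0–1101 (GE), and 225–419 CPM (S). The part of cell composition in these differences was not tested.

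**Figure D5:**
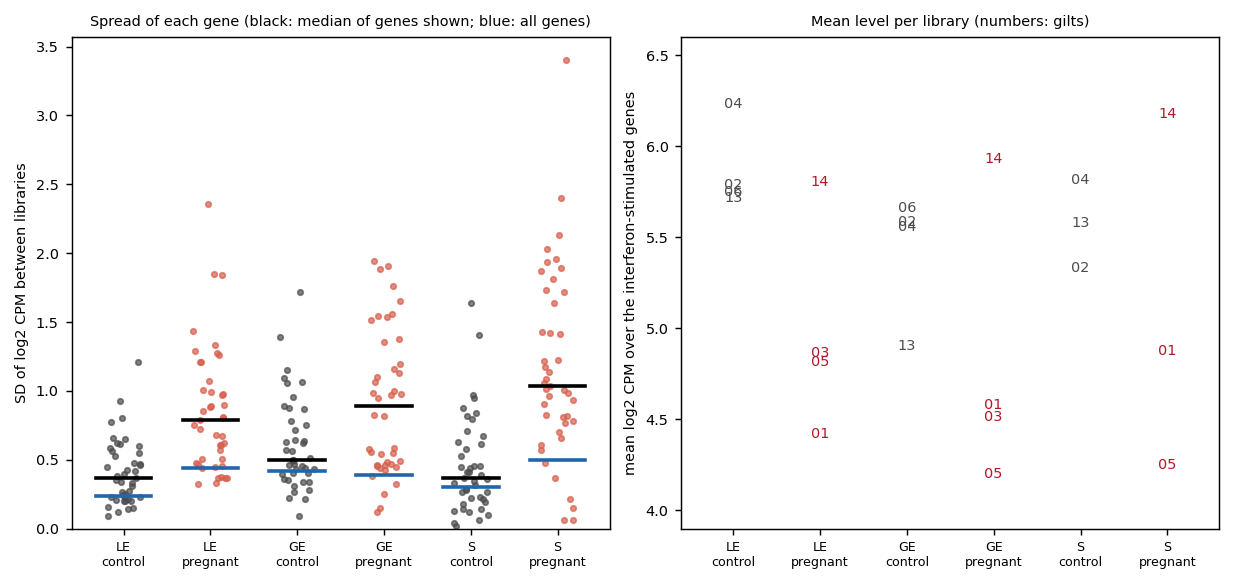
Left panel, SD of log2 CPM between libraries of a group for each member, with the median of the members in black and that of all genes in blue; right panel, mean log2 CPM over the members in each library, with gilt numbers. The pregnant groups have the higher member medians (0.79, 0.89, and 1.04 against 0.37, 0.50, and 0.37), and gilt 14 stands above the other pregnant gilts in LE, GE, and S.

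The members' deviations in one cell type were compared with those in another cell type of the same animal. The deviations of a gilt's libraries from their group means correlated across members with a median r of 0.488 between LE and GE (8 gilts), 0.634 between LE and S (6 gilts), and 0.653 between GE and S (6 gilts), beside 0.257, 0.314, and 0.468 across all genes. For gilt 14 they were 0.750, 0.693, and 0.875. These correlations run across the 42 members listed for all cell types. A gilt's libraries share the animal and the group means, and genes are not independent replicates.

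Counts of called members changed with the gilt left out. Leaving out a gilt also leaves fewer libraries, and shares of all genes are given only for the fits without gilt 14. The other counts are descriptions only, not results about the members. In LE the 3 called members became 2 without gilt 01, 03, or 05, 1 without gilt 02 or 13, and 0 without gilt 04 or 06. Without gilt 14, 18 members were lower, beside 5.93% of all genes, and 2 were higher, beside 8.46%. Those lower were IRF9, STAT2, DDX58, EIF2AK2, ADAR, RSAD2, CMPK2, MX1, IFIT1, IFIT2, IFIT3, IFITM3, USP18, HERC6, IFI6, IFI44, IFI44L, and XAF1. Among them the log2 FC without gilt 14 was −1.81 for IFITM3 (SE 0.20, edgeR FDR 0.000164) and −2.11 for EIF2AK2 (SE 0.27, edgeR FDR 0.000487). Gilt 14 had the highest pregnant level for most members in these same data. Lower log2 FCs and smaller p-values are thus likely without it, and the calls and FDRs without gilt 14 are descriptions only. In GE the 1 called member was kept without gilt 01, 02, or 13, and 0 were called without gilt 03, 04, 05, or 06. Without gilt 14, 5 were lower (OAS2, EIF2AK2, IFI44, IFI44L, and USP18), beside 0.103% of all genes, and OAS1 was not among them. OAS2 then had a log2 FC of −1.83 in GE (SE 0.32, past the p threshold, edgeR FDR 0.138). In S 1 member, HERC5, was lower without gilt 14, beside 0.746% of all genes (log2 FC −1.64, SE 0.31, edgeR FDR 0.122), and 0 were called without any other gilt. The median log2 FC in S was 0.03, 0.13, and 0.31 without gilt 01, 04, and 05.

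The members with and without an ISRE core were also set side by side. Gilt 14 had a median of 3.0-fold (LE), 3.08-fold (GE), and 3.07-fold (S) the other pregnant libraries over the 19 members with a core, and 1.91-fold, 1.89-fold, and 2.64-fold over those without. Of the members whose windows are printed, in LE this ratio was 4.32 for IFIT3, 4.15 for USP18, 3.26 for IFITM3, and 3.08 for ZBP1, but 1.23 for BST2 and 1.34 for DTX3L. The median pregnancy log2 FC was −1.14 with and −0.73 without a core in LE, −0.44 and −0.35 in GE, and 0.04 and −0.08 in S. The ratios of members with and without a core overlapped. As log2 ratios of gilt 14 to the other pregnant libraries, they were −1.11 to 3.29 with and −0.83 to 2.35 without a core in LE. In GE they were −0.36 to 3.35 and −0.65 to 3.07, and in S −0.83 to 5.09 and −0.56 to 3.14. The medians were not tested.

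Whether the pregnancy response differed between cell types was asked by the interaction in a joint fit of the 22 libraries over 10643 genes listed for all cell types. For GE minus LE 0 members were called, beside 0% of all genes, and again 0 in a fit with a fixed gilt term (the gilt block), beside 0.395%. For S minus LE and S minus GE 0 members were called with and without the gilt block, and their shares of all genes are not given here. In edgeR 2, 3, and 0 members had an unadjusted p under 0.05 for GE minus LE, S minus LE, and S minus GE, and DESeq2 called 0. The smallest p was that of IRF2, whose log2 FC differed from that in LE by −1.18 in S (SE 0.35, edgeR FDR 0.305) and by −0.99 in GE (SE 0.33, edgeR FDR 0.175). For IRF9 the differences from LE were 0.79 in GE (SE 0.48, edgeR FDR 0.546) and 1.18 in S (SE 0.52, edgeR FDR 0.435).

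Between cell types of the same status, few members were called. On the scale of the joint fit, IFITM1 had 267 ± 94.5 CPM in LE and 84.1 ± 21.3 CPM in GE of pregnant gilts (SD, n = 4), and PARP14 had 253 ± 106 CPM and 78.1 ± 25.7 CPM. These 2 members were called lower in pregnant GE than in pregnant LE, beside 4.5% of all genes, with log2 differences of −1.67 for IFITM1 (SE 0.41, edgeR FDR 0.00712) and −1.70 for PARP14 (SE 0.39, edgeR FDR 0.00530). In the fit with the fixed gilt block, in which each animal serves as its own control, 6 members were lower, beside 7.91% of all genes. These added IFI30 (−1.13), MX2 (−1.78), HERC5 (−1.22), and DTX3L (−0.99). The call of IFITM1 was kept without gilt 06 or 13 and lost without any other gilt, and that of PARP14 was lost without gilt 02, 03, 04, or 05. In control gilts 0 members were called in the unblocked edgeR fit, with 4 at an unadjusted p under 0.05 and 0 called by DESeq2, and with this block IFITM1 (−1.68, edgeR FDR 0.00811) and IFITM3 (−1.19, edgeR FDR 0.00803) were lower in GE, beside 0.667% of all genes. No member was called between S and LE or between S and GE, by edgeR or DESeq2. In edgeR, 0 members in control and 6 in pregnant gilts had an unadjusted p under 0.05 between S and LE, and 1 in each status between S and GE.

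Per kilobase of exon, over all libraries, the highest mean level was that of IFI6 with 429.7 CPM per kb, followed by IFITM3 with 293 and IFITM1 with 245. OAS2 came next with 76.6 CPM per kb, then IFI30 with 42.3, MX1 with 41.6, and IRF9 with 39.5. IRF7, DHX58, ZBP1, MX2, and TRIM21 were at the low end, with 4.81 to 4.38 CPM per kb. This order pools the groups, and it differs within them. IFI30 had a mean of 93.5 CPM per kb in pregnant LE and 25.7 in control LE, where MX1 had 62.5, IRF9 58.3, and IFI44 51.6. These are levels per exon length, not differences between groups.

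Other genes of the pathway were taken from 4 lists, of which 39 genes were listed for LE. Of these, 9 were higher and 0 lower in pregnant LE at FDR < 0.01 in edgeR, beside 6.33% and 3.71% of all genes. Among 10 receptors, kinases, and STATs, 5 were higher. IFNAR2, a chain of the receptor for type I interferons, had 24, 35.8, 22.6, and 29.5 CPM in control and 162, 267, 275, and 175 CPM in pregnant LE (log2 FC 2.97, SE 0.25, edgeR FDR 6.48e-05). IFNAR1, its partner, had 149, 184, 181, and 131 CPM and 627, 1096, 1269, and 822 CPM (log2 FC 2.56, SE 0.25, edgeR FDR 0.000128). Gilt 14 was with the other pregnant gilts and apart from the controls for both receptor chains. The log2 FCs of IFNGR2, IFNLR1, and IL10RB, which serve interferon gamma and lambda, were 3.02, 2.99, and 3.06. Of 7 adapters and kinases 2 were higher, IKBKE (2.01) and TBK1 (1.24), and of 17 further interferon-stimulated genes 2 were higher, LGALS9 (1.01) and N4BP1 (1.37). Only 6 of these 17 had positive log2 FCs, and their median was −0.38, with the lowest value in LGALS3BP (edgeR FDR 0.0216). Of 5 negative regulators 0 passed. In GE IFNAR1 (1.07, edgeR FDR 0.204) and IFNAR2 (0.98, edgeR FDR 0.216) were the 2 higher of 38 genes, beside 0.574% of all genes, and 0 were lower, beside 0.12%. In S 0 of 38 passed in either direction, beside 0.425% higher and 1.05% lower.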

How the data were processed

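The authors made the libraries from picogram amounts of LCM RNA with the Ovation SoLo kit, removed PCR duplicates by molecular identifiers, and aligned reads with Hisat2 to Sscrofa11.1. They deposited 1 table of raw read counts per cell type, with genes below a CPM cutoff removed. The counting tool, strand, and level of that cutoff are not given in the sources used here. Deposited counts were tested with edgeR 4.0.16 in R 4.3.3 (TMM, quasi-likelihood F test), each cell type alone, with thresholds of FDR < 0.01 in LE and an unadjusted p of 0.0021 in GE and S, over all genes of a table and Benjamini-Hochberg adjusted. A joint fit of 22 libraries gave interactions and cell type differences. CPM used TMM, and log2 CPM a prior count of 2. Replicates were separate gilts. Gilt numbers name the same animal across cell types, so the gilt is a true pairing there (median r of deviations over all genes 0.257 to 0.468) and was used as a block in alternatives. Pregnant and control gilts share none. Floors cover counting error only, whereas the SDs and the SEs of the edgeR fits also include differences between gilts.

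Members and gene lists were chosen with earlier results of these data known. Per-library values are given for called members and for the member with the highest level per kilobase in each of 9 role groups. EIF2AK2 and RSAD2 were added after their values were seen. IFIT5 was matched by a synonym. An item of the pathway lists is not reported here. On simulated counts with 200 genes changed by a log2 FC of 2, the fit recovered 164 with 4 false calls in LE (11415 genes), 150 with 24 in GE (11676 genes), and 120 with 30 in S (11532 genes). DESeq2 1.42.0, other normalisations, filters, thresholds, and each gilt left out were alternatives.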

Additional observations from a re-analysis of the deposited data

Results flagged for a closer look

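Over 60 groups of 4 libraries, 13 had a library apart from the other 3 by Dixon's criterion at the 95% level, which chance gives in about 1 of 20 groups. Of these groups 52 were of genes chosen by rule or of the members' mean, with 10 such libraries, and the other 3 came from EIF2AK2 and RSAD2, which were chosen after their values were seen. The groups share gilts and the genes move together, so these are not independent. In pregnant GE, gilt 14 was highest with 308.6 CPM of OAS2 (others 58.0 to 85.1), 267.6 CPM of MX1 (others 24.1 to 38.4), 77.41 CPM of IFIH1 (others 21.4 to 27.8), 696.7 CPM of EIF2AK2 (others 151 to 206), and 34.64 CPM of RSAD2 (others 0.870 to 6.56). In pregnant LE, gilt 14 was highest with 205.8 CPM of IFITM3 (others 58.2 to 65.4), 133.1 CPM of MX1 (others 31.7 to 48.1), and 404.8 CPM of EIF2AK2 (others 93.4 to 137). Gilt 03 was highest in pregnant LE with 246.2 CPM of IRF2 (others 123 to 141). Among controls, gilt 13 was lowest with 144.2 CPM of IFI6 in GE (others 379 to 400.4) and 120.4 CPM of TRIM25 in LE (others 147 to 150.2). The mean log2 CPM over the members was 4.904 in control GE gilt 13 (others 5.55 to 5.66) and 6.232 in control LE gilt 04 (others 5.72 to 5.79).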

How the results depend on the processing

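The number of members called in LE, 3, became 8 at FDR < 0.05, 7 with a likelihood ratio test, 6 with DESeq2, and 0 with only the gilts that have an S library, and 0 to 20 with 1 gilt left out (20 without gilt 14). The share of all genes called moved as well. In LE the lower genes were 3.71% of all genes in the main fit, 9.63% at FDR < 0.05, 7.87% with DESeq2, and 5.93% without gilt 14. In GE the count of 1 became 0 at FDR < 0.05, at FDR < 0.01 (chosen after seeing the data), with at least 10 counts in every library, and with only the gilts that have an S library, and 0 to 5 with 1 gilt left out (5 without gilt 14). Lower genes in GE were 0.12% of all genes in the main fit and 0.103% without gilt 14. In S the count of 0 became 1 with a likelihood ratio test, 2 with DESeq2, and 0 to 1 with 1 gilt left out (1 without gilt 14). Lower genes in S were 1.05% of all genes in the main fit, 2.36% with the likelihood ratio test, 2.64% with DESeq2, and 0.746% without gilt 14. Between control GE and LE the count of 0 became 2 with the gilt as a fixed block, 1 with a random block, and 0 to 1 with 1 gilt left out (1 without gilt 06). Between pregnant GE and LE the count of 2 became 1 by library size alone, 6 with a fixed block, 3 with a random block, and 0 to 2 with 1 gilt left out (0 without gilt 02, 03, 04, or 05). Genes lower in pregnant GE than LE were 4.5% of all genes in the main fit and 7.91% with the fixed block. Shares of all genes under the other settings are not given here. Apart from fewer genes or libraries, the cause of these moves in the member counts was not tested. The block changed no other count of members called.

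The interactions had 0 called members in all 45 alternatives. The median log2 FC of the members was negative in all 17 alternatives in LE (−1.05 to −0.63) and GE (−1.06 to −0.13), and in 11 of 14 in S (−0.92 to 0.31). Library size alone moved the median of all genes in LE from 0.01 to −0.14 and that of the members from −0.74 to −0.88; no role group's median changed sign under it. Counts were as low as 0 in RSAD2 and OAS1, where a level under the floor of 3 counts cannot be told from 0.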
